A study of Homo sapiens with 6 samples.

Results

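To describe how the genes that crosslink and assemble elastic microfibrils behaved under erianin, 10 genes were followed in RNA sequencing of CAL62 cells. CAL62 is an established cell line of anaplastic thyroid carcinoma (ATC), carried here with its wild-type genotype. The 10 genes are the lysyl oxidases LOX, LOXL1, LOXL2, LOXL3 and LOXL4, the latent TGF-beta binding proteins LTBP1, LTBP2 and LTBP3, the fibrillin FBN1 and the microfibril assembly factor THSD4. All 10 were found among the 39168 gene identifiers of the count table. LOXL1, LTBP2 and THSD4 were chosen by their strong decrease in the comparison reported here, so their values are a description and carry no test. The other 7 joined them by family and function.

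The study compared 3 libraries of cells treated with 50 nM erianin, a natural compound from Dendrobium, with 3 libraries of cells given the solvent DMSO. Both groups grew in RPMI medium with fetal bovine serum and were harvested after 48 h, the replicates are labelled as replicate experiments, and 1 cell line, dose and time were sampled. Between 25776301 and 34107727 reads per library were counted on genes with an identifier. DMSO replicate 3 stood apart, at Euclidean distances of 64.1 and 62.9 in log2 CPM from DMSO replicates 1 and 2. Those 2 lay 37.2 from each other, and the erianin libraries lay between 28.2 and 29 from each other. From DMSO replicates 1 and 2 to the erianin libraries the mean distance was 60.2, under the 64.1 and 62.9 to DMSO replicate 3. The distance from DMSO replicate 3 to the erianin libraries was not computed. The DEG counts and the log2 fold changes of the members and the named pathway genes were therefore also computed without DMSO replicate 3. CPM are read counts scaled to a common library size. DEG stands for a gene whose edgeR adjusted p was under 0.05 and whose log2 fold change was beyond 0.5 in either direction. The p-values measure the spread between these libraries. Whether the replicates were grown independently is not stated in the study's methods.

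The epithelial keratins KRT8 and KRT18 were abundant, and of the thyroid markers PAX8 was expressed at 676 ± 55.2 CPM with DMSO and 428 ± 7.88 CPM with erianin (SD, n = 3 each). TG, TSHR, SLC5A5 and NKX2-1 were at or near 0. PAX8 was a DEG, lower with erianin (log2 fold change -0.66, edgeR adjusted p = 0.00403), and its part in the results below was not tested. Matrix genes are typical of fibroblasts, and all 6 fibroblast markers (PDGFRA, PDGFRB, DCN, LUM, FAP and THY1) were under 1 CPM in every library. DCN, a defining marker, had no read. Their summed level was between 0.642 and 0.863 CPM with DMSO and between 0.914 and 1.14 CPM with erianin.

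Lysyl oxidases are secreted, copper-dependent enzymes that oxidize lysine side chains of collagen and elastin, from which the covalent crosslinks of the matrix form. Elastic microfibrils are filaments built mainly of fibrillin, on which elastin can be deposited and to which the latent TGF-beta binding proteins attach. LTBP1 and LTBP3 bind latent TGF-beta and tether it to the matrix, whereas LTBP2 does not bind it. THSD4, also known as ADAMTSL6, promotes the assembly of fibrillin-1 into microfibrils.

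The sequences upstream of 4 of the genes are shown to place them in the genome and to set LTBP2 and THSD4, which were lower with erianin, beside LOX and FBN1, which were not. They come from RefSeq on GRCh38.p14, which held 17 start windows for 9 of the 10 genes, and are given 5′ to 3′ on the strand of the gene. The 250 bases before a RefSeq start are printed up to the first base that GENCODE release 29 places in an exon, so the LTBP2 stretch has 109 bases and the LOX stretch 149. Capitals mark matches on either strand to 6 motifs, none of which overlap here: the GC box GGGCGG, the TATA box TATAAA, the CCAAT box CCAAT, the AP-1 site TGACTCA, the TEAD site GGAATG and the core of the hypoxia response element ACGTG. THSD4 has 3 RefSeq starts and LOX also has 3, the outermost of which are shown, and gene counts do not tell which start was used.
LTBP2 (chr14:74612379-74612487, minus strand): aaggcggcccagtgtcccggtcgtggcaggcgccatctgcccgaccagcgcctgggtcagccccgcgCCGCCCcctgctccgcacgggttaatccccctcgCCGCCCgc
THSD4 (chr15:71096644-71096893, plus strand): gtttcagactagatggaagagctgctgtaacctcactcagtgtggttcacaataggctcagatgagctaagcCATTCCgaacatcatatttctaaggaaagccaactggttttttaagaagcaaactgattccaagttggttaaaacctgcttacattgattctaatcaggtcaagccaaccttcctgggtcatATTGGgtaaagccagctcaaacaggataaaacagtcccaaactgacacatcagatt
LOX (chr5:122078361-122078509, minus strand): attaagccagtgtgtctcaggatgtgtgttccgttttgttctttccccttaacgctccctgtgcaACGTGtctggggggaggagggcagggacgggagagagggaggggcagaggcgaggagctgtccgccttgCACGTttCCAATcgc
FBN1 (chr15:48644971-48645220, minus strand): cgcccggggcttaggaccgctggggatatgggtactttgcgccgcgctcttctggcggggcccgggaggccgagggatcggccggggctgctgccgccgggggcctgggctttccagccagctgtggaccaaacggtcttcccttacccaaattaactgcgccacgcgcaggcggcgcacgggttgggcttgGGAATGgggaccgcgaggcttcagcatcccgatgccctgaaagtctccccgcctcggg
The LTBP2 stretch carries GC boxes alone, while the THSD4 stretch carries a CCAAT box and a TEAD match. FBN1 carries a TEAD match as well, in a stretch that lies inside the gene as GENCODE draws it. The window of LOXL1 lies within an exon of GENCODE, is not printed, and holds none of the 6 motifs. Over all 17 windows, 7 held the GC box, against 42.6% of the 35116 RefSeq windows of the same length, 3 the CCAAT box (32% of all), 3 the TEAD site (11.9%), 4 the hypoxia core (18.5%), and none the TATA box (10.7%) or the AP-1 site (4.2%). The 7 GC box windows came from 6 genes and the 4 hypoxia core windows from 2, LOX and LTBP1. Windows of the same gene can overlap. These matches describe letters and not bound sites.

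Among the lysyl oxidases, LOXL1 was lower with erianin and none of its 4 paralogs was a DEG in that direction. LOXL1, an enzyme tied to elastic fibre maintenance, lies on chromosome 15 from 73925989 to 73952137 (GENCODE release 29 on GRCh38, as for all gene positions here). It stood at 116, 129 and 98.2 CPM in DMSO replicates 1, 2 and 3 and at 46.6, 46.2 and 47.8 CPM in the erianin replicates. The groups did not overlap, and the erianin libraries were nearly level. The mean went from 114 ± 15.3 to 46.9 ± 0.826 CPM (SD, n = 3 each), which is -1.29 on the log2 scale with a standard error of 0.11, or a change of -59.0%. Without DMSO replicate 3, the lowest of the controls, the log2 fold change was -1.39. Its antisense partner LOXL1-AS1, with which it shares 335 exonic bases, had no read in any library.

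LOX, the founding member of the family, lies on chromosome 5 from 122063195 to 122078360. It had 45.2, 41.4 and 54.5 CPM with DMSO and 54.8, 60.6 and 60.1 CPM with erianin. Every erianin library was above every DMSO library, although DMSO replicate 3 lay just under the lowest of them. The log2 fold change of 0.31 (95% interval 0.04 to 0.59) did not pass the test after adjustment over all genes (edgeR adjusted p = 0.113). Without DMSO replicate 3 it was 0.43, still under the fold-change threshold, with an edgeR adjusted p of 5.48e-07, where the alternatives ranged up to 0.307. With the GC trend also removed it was 0.24. On log2(TPM + 1) values LOX passed both thresholds in limma, at 0.50, but the median of all genes was then 0.18, and LOX stood 0.33 above it. LOX shares 138 exonic bases with SRFBP1 on the opposite strand, which had 5.50 ± 2.39 CPM with DMSO and 8.12 ± 1.07 CPM with erianin (SD, n = 3 each).

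LOXL4 was the scarcest of the 5, with 10, 21 and 12 reads with DMSO and 35, 48 and 30 reads with erianin, or 0.411, 0.647 and 0.385 against 1.02, 1.37 and 0.857 CPM. The groups did not overlap. Its log2 fold change of 1.15 (95% interval 0.40 to 1.91) narrowly missed the test (edgeR adjusted p = 0.0529). It passed with DESeq2 (adjusted p = 0.0478), with upper-quartile factors, with the GC trend removed and without DMSO replicate 3, and did not pass with any of the other 5 libraries left out, so that its adjusted p ranged from 0.0182 to 0.189 over the alternatives in edgeR, DESeq2 and limma. It also passed on TPM values, at 0.75 on the log2(TPM + 1) scale.

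LOXL2, which crosslinks collagen IV of basement membranes, lies on chromosome 8 from 23297189 to 23425328 and had between 28.3 and 34.3 CPM in the DMSO and between 28.3 and 31.5 CPM in the erianin libraries. The groups overlapped, and the log2 fold change of -0.09 (95% interval -0.33 to 0.16, edgeR adjusted p = 0.633) turned positive on TPM values, at 0.11. Without DMSO replicate 3 it was -0.17 (edgeR adjusted p = 0.0469, and up to 0.912 over the alternatives), still under the fold-change threshold. LOXL3 stayed between 6.29 and 6.82 CPM in all 6 libraries (log2 fold change 0.07, 95% interval -0.19 to 0.33, edgeR adjusted p = 0.730). The intervals of LOXL2 and LOXL3 lie inside the fold-change threshold on either side. LOXL3 shares 625 exonic bases with HTRA2 and 216 with DOK1, both on the other strand and more abundant than LOXL3, so its level is uncertain if the counting ignored strand, which is not stated.

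**Figure D1:**
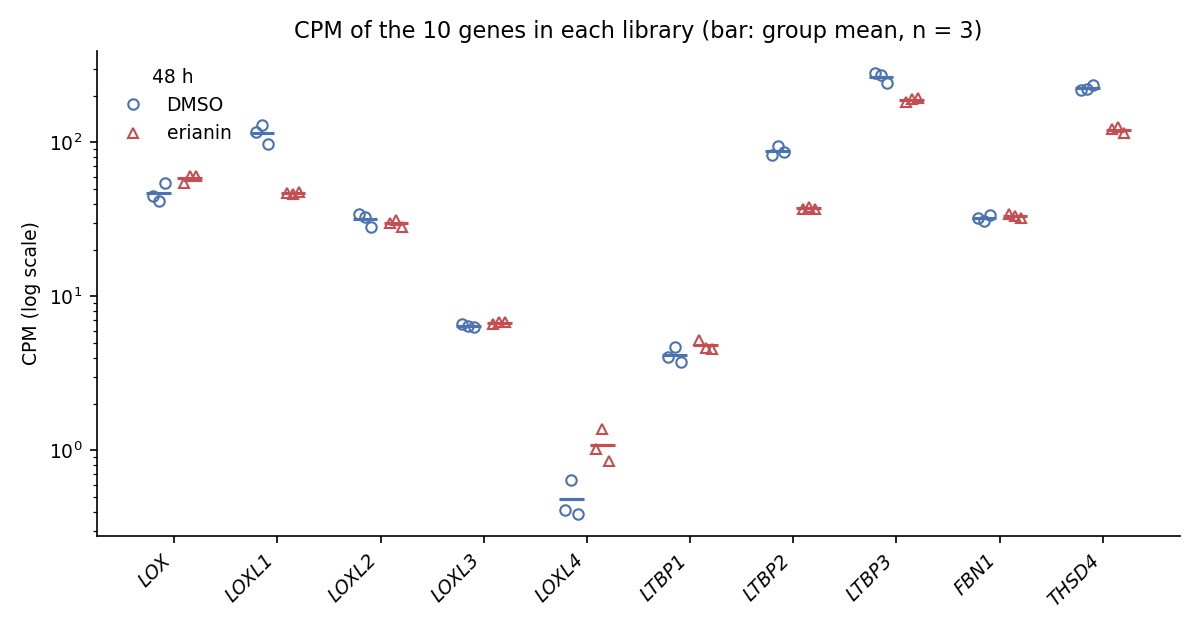
CPM (log axis) of the 10 genes in each of the 3 DMSO (circles) and 3 erianin (triangles) libraries, with a bar at each group mean. LOXL1, LTBP2, LTBP3 and THSD4 have every erianin library below every DMSO library, LOX, LOXL3 and LOXL4 have every erianin library above, and the groups of LOXL2, LTBP1 and FBN1 overlap.

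The make-up of the family differed between the groups. TPM, which divides counts by gene length, allows levels to be set side by side. LOXL1 made up 70.0%, 73.2% and 65.4% of the summed lysyl oxidase TPM in the DMSO libraries and 46.1%, 43.6% and 45.7% in the erianin libraries. LOX made up 16.7%, 14.4% and 22.2% with DMSO and 33.2%, 35% and 35.3% with erianin. The summed TPM was 138, 147 and 115 with DMSO and 93.8, 97.1 and 98.5 with erianin, so LOXL1 remained the most abundant of the 5 in every library by this measure. The deposited TPM columns of DMSO replicates 1, 2 and 3 sum to 73.5%, 72.6% and 59.1% of the full TPM scale. Those of the erianin replicates sum to 77.2%, 75.1% and 78.3%. The summed TPM are therefore not on a common scale between libraries, and DMSO replicate 3 is lowered most, while the shares within a library are unaffected. The shift in shares follows in part from the choice of LOXL1 for its decrease. With CPM per kilobase of the longest GENCODE transcript in place of TPM, the LOXL1 share was 66.9% and 43.2% on average with DMSO and erianin.

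**Figure D2:**
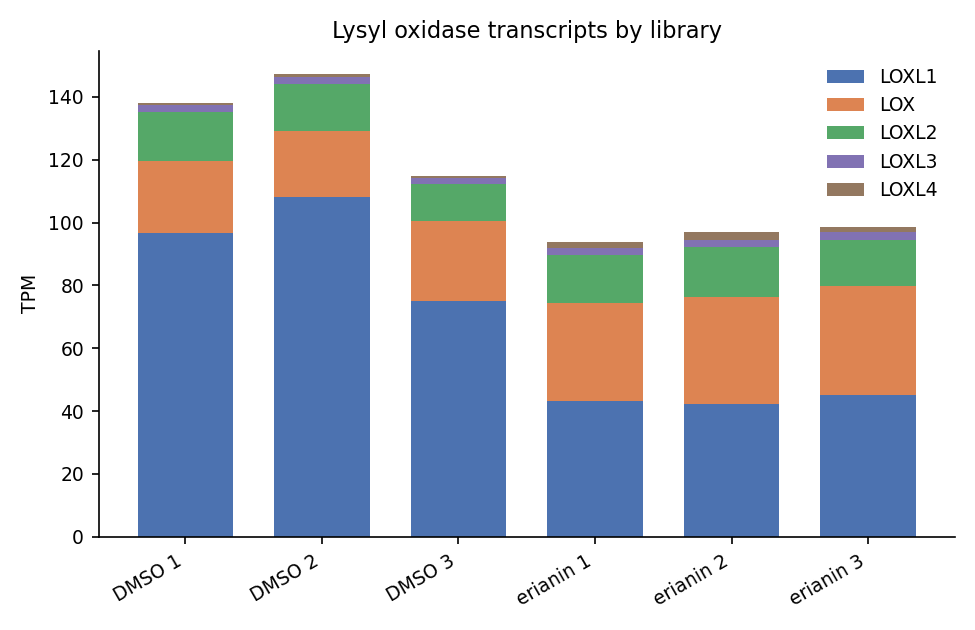
Stacked bars of the TPM of the 5 lysyl oxidases in each library, from 0. The LOXL1 segment is between 75.0 and 108 TPM in the DMSO libraries and between 42.4 and 45 TPM in the erianin libraries, while the LOX segment is between 21.2 and 25.5 and between 31.2 and 34.7 TPM.

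Of the latent TGF-beta binding proteins, LTBP2 was lower with erianin by more than LTBP3, and LTBP1 was scarce. LTBP2 lies on chromosome 14 from 74498170 to 74612378. It had 82.7, 94.1 and 87.1 CPM with DMSO and 37.1, 37.9 and 37.0 CPM with erianin. The groups were far apart and the erianin libraries nearly level. The means of 88.0 ± 5.75 and 37.3 ± 0.474 CPM (SD, n = 3 each) differ by -1.24 on the log2 scale with a standard error of 0.08, a change of -57.6%. It moved between -1.28 and -0.97 over all alternatives.

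LTBP3, which binds latent TGF-beta, lies on chromosome 11 from 65538805 to 65558930 and was the member with most reads. It had 283, 273 and 244 CPM with DMSO and 184, 190 and 193 CPM with erianin. All erianin libraries were below all DMSO libraries. The mean changed from 267 ± 20.4 to 189 ± 4.16 CPM (SD, n = 3 each), by -29.2%. On the log2 scale this was -0.499 with a standard error of 0.08 (edgeR adjusted p = 0.00829) and came just short of the fold-change threshold of 0.5, so LTBP3 was not a DEG. Under DESeq2 and RLE factors, without the low-count filter and without DMSO replicate 3 it was one, and with any erianin library left out its edgeR adjusted p was between 0.0573 and 0.0599. The adjusted p ranged from 3.11e-13 to 0.124 over the alternatives in edgeR, DESeq2 and limma.

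LTBP1 lies on chromosome 2 from 32946972 to 33399509 and had 4.06, 4.68 and 3.76 CPM with DMSO and 5.24, 4.61 and 4.57 CPM with erianin. The groups overlapped, and the log2 fold change of 0.20 (95% interval -0.14 to 0.55) did not pass (edgeR adjusted p = 0.395).

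FBN1 had similar levels in both groups, while its assembly factor THSD4 was lower with erianin. FBN1 lies on chromosome 15 from 48408306 to 48645849 and had 32.3, 31.0 and 33.6 CPM with DMSO and 34.2, 33.5 and 32.5 CPM with erianin. The values of the groups were interleaved, with a log2 fold change of 0.05 (95% interval -0.15 to 0.24, edgeR adjusted p = 0.758). THSD4, on the same chromosome from 71096952 to 71783383, had 219, 223 and 236 CPM with DMSO and 122, 126 and 115 CPM with erianin. All 3 erianin libraries were below all DMSO libraries, and here DMSO replicate 3 was the highest of the controls. The difference was -0.91 on the log2 scale with a standard error of 0.07, from 226 ± 8.87 to 121 ± 5.49 CPM (SD, n = 3 each), a change of -46.6%. Per length, THSD4 was 51.9 ± 0.917 TPM with DMSO against 7.05 ± 0.167 TPM for FBN1 (SD, n = 3 each). In bulk RNA, fewer cells expressing a gene and less RNA per cell cannot be told apart.

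**Figure D3:**
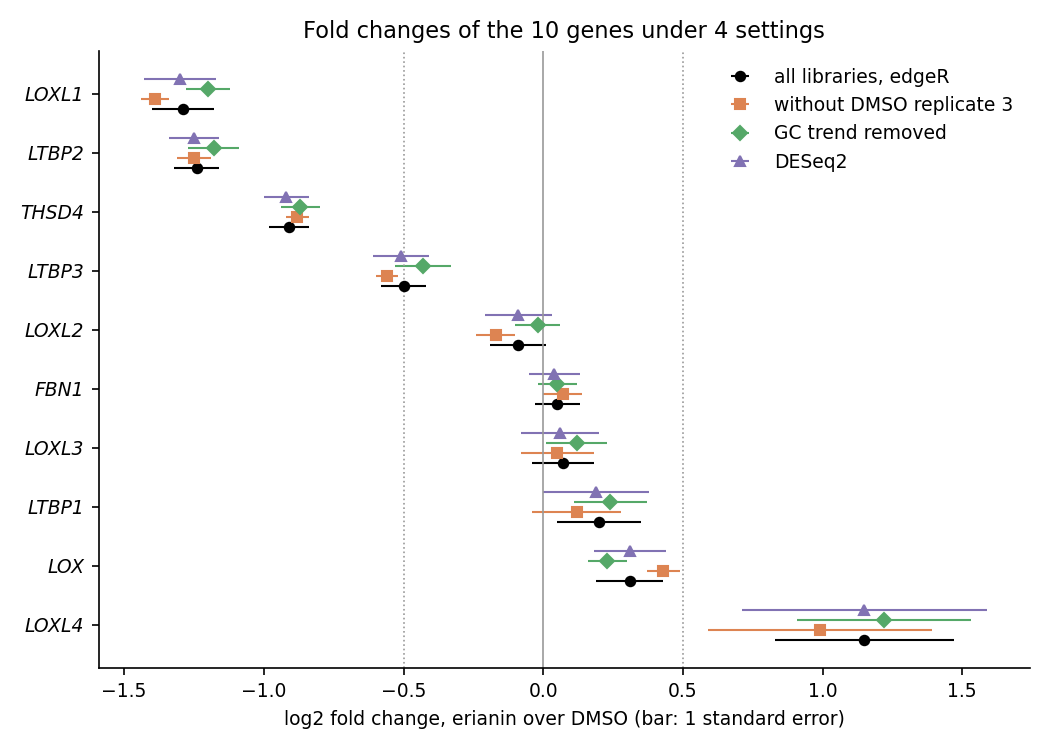
Log2 fold change of erianin over DMSO (x axis, bars are 1 standard error) for the 10 genes under edgeR with all libraries, edgeR without DMSO replicate 3, edgeR with the GC trend of each library removed, and DESeq2; dotted lines mark the fold-change threshold. LOXL1, LTBP2 and THSD4, chosen for their decrease, lie between -1.39 and -0.87, LTBP3 lies on either side of it, and the LOXL4 bars are the widest.

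Apart from the 3 genes chosen for their decrease, none of the 7 others was a DEG in edgeR. This stands against 3.36% of the 12821 genes tested being DEGs lower with erianin and 5.37% being DEGs higher. In DESeq2 2 of the 7 were DEGs, LTBP3 lower and LOXL4 higher. There 527 genes were DEGs lower and 837 higher, of 14552 with an adjusted p. An unadjusted edgeR p under 0.05 was seen for 3 of the 7, without a share of all genes to read it against. Of the 7, 1 had groups that did not overlap with erianin lower and 3 with erianin higher, where 19.3% and 19.5% of all genes tested did. For LOXL3 and LOX, which are among those higher, the margin was narrow. The highest DMSO library was at 6.57 and 54.5 CPM and the lowest erianin library at 6.59 and 54.8 CPM. The median log2 fold change of the 7 was 0.07, against 0.00 for all genes tested. LTBP3 was the 1 of the 7 with an edgeR adjusted p under 0.05, where 1912 of the 12821 genes tested had one. The GC content of the longest transcript was 67.6% for LOXL1, 67.8% for LTBP3, 57.2% for LTBP2 and 51.0% for THSD4, and the other 6 members ranged from 39.6% for LOX to 58.2% for LOXL2. With each library's trend on GC content removed, the log2 fold changes were -1.20, -0.43, -1.18 and -0.87 for these 4 and 0.23 for LOX.

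By deposited TPM, the order of the 10 genes in DMSO was LOXL1 (93.1), THSD4 (51.9), LTBP3 (40.5), LOX (23.2), LTBP2 (22.7), LOXL2 (14.2), FBN1 (7.05), LOXL3 (1.98), LTBP1 (0.783) and LOXL4 (0.780 TPM, group means). LOX and LTBP2, and LTBP1 and LOXL4, had overlapping ranges over the libraries, and each of the other neighbours was separated. With erianin LOX moved to the second place at 33.3 TPM, beside LTBP3 at 32.8 and THSD4 at 31.8 TPM with ranges that overlapped from each to the next. LOXL3 and LOXL4 overlapped as well, and LTBP2 stood below LOXL2, at 11 and 15.2 TPM. The order depends on the length that the authors assigned to each gene. Per kilobase of the longest GENCODE transcript, LTBP3 led in both groups at 60.1 and 42.5 CPM per kilobase, ahead of LOXL1 at 41.1 and 16.8 CPM per kilobase. On that scale LOX was not second with erianin. It stood at place 5 with DMSO, behind LTBP2, and at place 4 with erianin, behind THSD4 (9.22 and 11.5 CPM per kilobase).

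The genes whose centred log2 CPM over the 6 libraries lay nearest to each of the 3 chosen members were sought among genes with a mean of at least 1 CPM. The nearest gene to LTBP2 was LOXL1, at a Euclidean distance of 0.257, followed by CACNG6 (0.258) and AHNAK2 (0.260). Those nearest to LOXL1 were AHNAK2 (0.244), LTBP2 and KIAA1614 (0.342). THSD4 had closer neighbours, FAM78A at 0.0889, ARPIN at 0.106 and TNC at 0.113, with log2 fold changes of -0.87, -0.97 and -0.90. This is a likeness over 6 libraries that share 1 contrast, and it carries no test. LTBP2 and LOXL1 were both chosen for their decrease in that contrast, so their nearness follows in part from that choice.

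Genes of the same matrix pathway were taken from 6 lists, with 63 genes in all, of which 44 had enough reads to be tested. Of the 44, 4 were DEGs higher and 3 were DEGs lower with erianin, where 5.37% and 3.36% of all genes tested were, and the median log2 fold change was -0.03, against 0.00 for all genes tested.

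In the list of microfibril and elastic fibre components, 10 of 15 genes could be tested and 2 were DEGs, both lower. LTBP4, the remaining latent TGF-beta binding protein, had 303, 348 and 258 CPM with DMSO and 185, 210 and 195 CPM with erianin (log2 fold change -0.62, standard error 0.11, edgeR adjusted p = 0.0141). MFAP2, a small glycoprotein bound to fibrillin, had 37.4, 32.5 and 41.4 CPM with DMSO and 25.9, 23.6 and 22.5 CPM with erianin (log2 fold change -0.63, standard error 0.12, edgeR adjusted p = 0.0145). Neither group pair overlapped. Both calls were lost with any erianin library left out, with edgeR adjusted p-values of up to 0.0806 for LTBP4 and 0.0874 for MFAP2, and on log2(TPM + 1) values, at -0.40 and -0.41, or -0.58 and -0.59 relative to the median of all genes on that scale. EFEMP2, a fibulin that brings LOX to elastin, was at -0.29 (edgeR adjusted p = 0.0449), short of the fold-change threshold. FBN2, the second fibrillin, was at 0.02 (standard error 0.08) and FBLN1 at -0.24 (standard error 0.12). Elastin itself was barely transcribed, with ELN at 0.122 ± 0.0874 and 0.134 ± 0.0915 CPM (SD, n = 3 each), and was not tested.

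Of the ADAMTS and ADAMTSL proteins, the family of THSD4, 5 of 8 were tested and ADAMTSL4, which like THSD4 binds fibrillin, was a DEG, higher with erianin. ADAMTSL4 had 8.33, 9.15 and 7.96 CPM with DMSO and 11.8, 13.5 and 12.2 CPM with erianin (log2 fold change 0.56, edgeR adjusted p = 0.0201), the opposite direction to THSD4. It did not pass without DMSO replicate 1 or any erianin library, with an edgeR adjusted p of up to 0.103. ADAMTS6 was at 0.05, ADAMTSL5 at -0.20 and ADAMTS17 at 0.14.

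Of the genes of latent TGF-beta and its activators, 8 of 11 were tested. TGFB1, the ligand that LTBP1 and LTBP3 bind in its latent form, was at 434 ± 9.93 CPM with DMSO and 420 ± 7.33 CPM with erianin (SD, n = 3 each), or -0.05 on the log2 scale with a standard error of 0.06. FURIN, a protease that cleaves the TGF-beta precursor, was at -0.40 (edgeR adjusted p = 0.0287), under the fold-change threshold, and ITGB5 at -0.31 (edgeR adjusted p = 0.116). THBS1, an activator of latent TGF-beta, was the only DEG of this list, with 0.985, 1.57 and 1.41 CPM with DMSO and 5.80, 4.89 and 4.45 CPM with erianin (log2 fold change 1.91, standard error 0.21, edgeR adjusted p = 0.00319).

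Of the genes for lysyl oxidase activation and copper supply, 8 of 10 were tested and FN1 was the only DEG. FN1 encodes fibronectin, a scaffold of matrix assembly to which lysyl oxidase and the protease BMP1 bind. It had 5366, 5272 and 6813 CPM with DMSO and 3330, 3617 and 3112 CPM with erianin (log2 fold change -0.80, standard error 0.12, edgeR adjusted p = 0.00761). The FN1 call was lost without erianin replicate 1 or 3, with an edgeR adjusted p of up to 0.0559. BMP1, which cleaves the propeptide of LOX, was at -0.21 (standard error 0.12). The copper importer SLC31A1 was at 0.49 (edgeR adjusted p = 0.0283), just under the fold-change threshold, and the copper chaperone ATOX1 at 0.12 (standard error 0.15). SLC31A1 was a DEG with upper-quartile factors (0.55), without DMSO replicate 1 (0.57) and on log2(TPM + 1) values (0.69, or 0.51 relative to the median of all genes), and its adjusted p in edgeR was between 0.0941 and 0.129 with any erianin library left out and 0.0730 without DMSO replicate 2.

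Fibrillar collagens are substrates of the lysyl oxidases. Of the fibrillar collagen chains, 6 of 11 were tested and COL1A2 and COL11A2 were DEGs, both higher with erianin. COL1A2 had 11.1, 11.1 and 7.16 CPM with DMSO and 25.1, 26.8 and 22.9 CPM with erianin (log2 fold change 1.35, standard error 0.18, edgeR adjusted p = 0.00532). COL1A1, its partner in type I collagen, was at -0.32 (edgeR adjusted p = 0.0613). COL11A2 had between 1.19 and 1.41 CPM with DMSO and between 2.32 and 3.03 CPM with erianin, and without any 1 library other than DMSO replicate 3 it did not pass, with an edgeR adjusted p of up to 0.0883. COL27A1 was at -0.23 and COL5A2 at -0.14. Of the 8 collagen hydroxylases and chaperone genes 7 were tested and none was a DEG in edgeR or in DESeq2. In edgeR 4 of the 7 had an unadjusted p under 0.05, without a share of all genes to read it against. With adjustment 0 of the 7 were under 0.05, where 1912 of the 12821 genes tested were. P4HB was at -0.10 and SERPINH1 at -0.15. PLOD2, which hydroxylates the lysines that lysyl oxidases act on, was at 0.24 and passed only without DMSO replicate 3 among the alternatives, at 0.51.

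**Figure D4:**
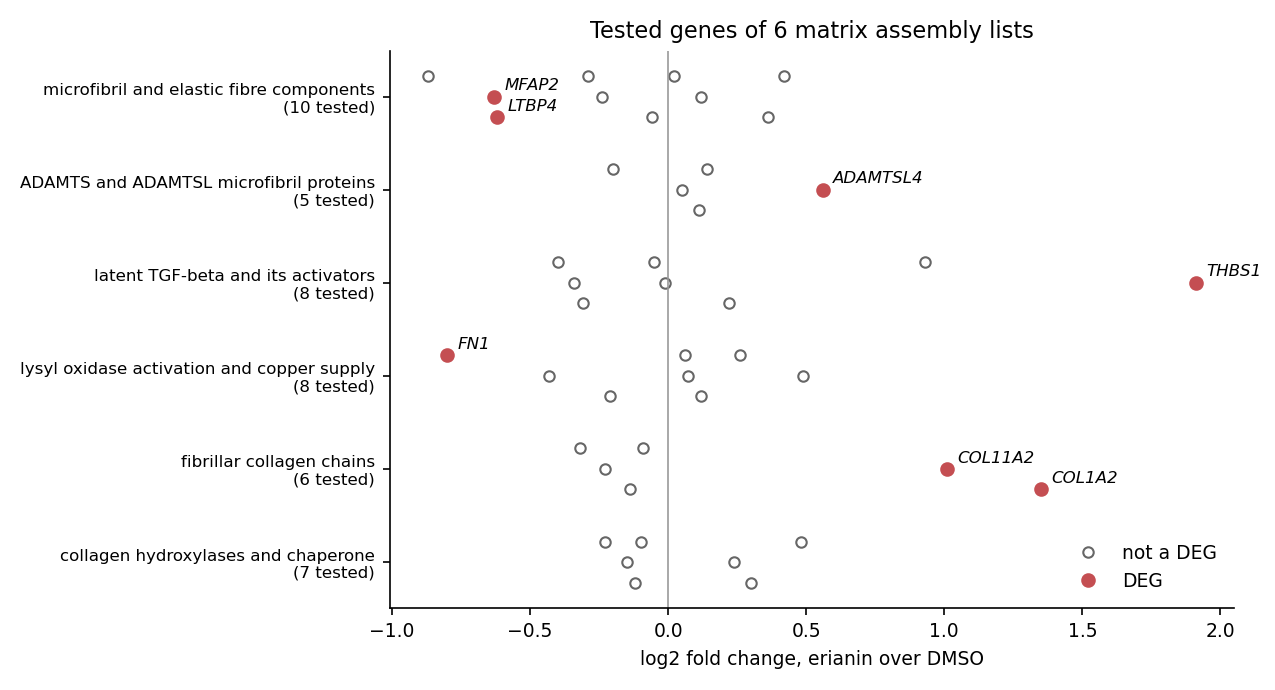
Log2 fold change of erianin over DMSO (x axis) for the 44 tested genes of the 6 lists (rows; vertical offsets within a row only separate points), with DEGs filled and named. LTBP4, MFAP2 and FN1 are the DEGs below 0, and ADAMTSL4, THBS1, COL11A2 and COL1A2 those above.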

How the data were processed

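Gene-level read counts and TPM values of the 6 libraries were deposited by the authors. The study's methods name BGISEQ-500 for sequencing, while the sample labels name Illumina library protocols. The submitters' processing notes name fastp 0.23.2, STAR 2.7.10, featureCounts 2.0.1, StringTie 2.2.1 and GRCh38, without roles. Annotation release and strand setting are not given in the sources used here. The deposited TPM columns sum to between 59.1% and 78.3% of the full TPM scale. Of 65807 rows, 26480 without an identifier (at most 0.00515% of the counts) were left out. Of rows sharing an identifier, the one with most counts carried the symbol.

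Counts were fitted over the whole table with edgeR 4.0.16 (TMM, filterByExpr, glmQLFit, glmQLFTest) in R 4.3.3, with Benjamini-Hochberg adjustment over 12821 genes; standard errors follow from the F statistic. Alternatives used DESeq2 1.42.0, limma 3.58.1, a replicate block, a loess trend (span 0.5) on GC content, known for 98.9% of tested genes, and each library left out. Scripts were tested on simulated data. Members and lists were chosen with earlier results of these data known. Named were the 10 members, every DEG of a list, up to 3 further genes per list by mean CPM, and nearest neighbours; ELN and PAX8 were named after their values were seen. Same-numbered libraries did not deviate together, so no pairing was used.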

Additional observations from a re-analysis of the deposited data

How the results depend on the processing

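Over the 18 alternatives the log2 fold changes of LOXL1, LTBP2 and THSD4 ranged from -1.39 to -1.06, -1.28 to -0.97, and -0.94 to -0.69, a description since they were chosen for their decrease. Of the 7 other members, LTBP3 was a DEG in 5 alternatives, LOXL4 in 9 and LOX in the 3 on TPM values. No pairing by replicate number was seen: deviations of same-numbered libraries correlated at 0.00138, 0.0253 and -0.0329 across genes; with the replicate block 665 genes in place of 1119 were DEGs, and ADAMTSL4 and COL11A2 were lost. Without a fold-change threshold 1912 genes and 11 listed pathway genes passed, by construction. With 1 library left out, DEGs ranged from 309 to 2282 and listed pathway genes from 2 to 9; the most came without DMSO replicate 3 (2282 and 9) and the fewest without an erianin library. The share of higher calls moved with the scaling: 688 higher and 431 lower became 822 and 299 with upper-quartile factors, and 1098 and 94 on log2(TPM + 1), where the median of all genes was 0.18; relative to it LOXL1, LTBP2 and THSD4 were at -1.24, -1.15 and -0.87. Removal of the GC trend together with DMSO replicate 3, chosen after seeing the data, took LTBP4 to -0.49 and MFAP2 to -0.38, under the fold-change threshold. The causes of these changes were not tested. Among the 10 members, LOXL4 and LTBP1 have the fewest reads and the widest intervals.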
